A study of Homo sapiens with 9 samples.

Results

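The interferon-inducible ADP-ribosyltransferases PARP14, PARP9, PARP10, PARP11 and PARP12, the ubiquitin ligase DTX3L that partners PARP9, and the constitutive relatives PARP1 and PARP2 were followed in bulk RNA-seq counts of U937-Cas9 cells. U937 is an established human monocytic line, and Cas9 is the nuclease used for gene knockouts. These 8 genes were chosen by name among the 20265 genes of the count table, and all 8 were found and passed the filter on low counts. There were 3 groups of 3 libraries each. The first held IRF2KO cells labelled as carrying pIRF2 (IRF2KO_pIRF2), the second IRF2KO cells and the third WT cells, and all share the U937-Cas9 background. The labels do not say how IRF2 was disrupted, whether a line is 1 clone, or what pIRF2 encodes, and they name no interferon or other treatment. Nothing in them says that the replicates of a group are separate cultures, so p-values measure only the spread between these libraries, which may be technical.

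PARP enzymes use NAD+ to attach ADP-ribose to proteins and nucleic acids. PARP1 and PARP2 build chains of it at DNA breaks, whereas PARP10, PARP11, PARP12 and PARP14 attach single units and are transcribed more strongly after interferon. PARP9 carries ADP-ribose-binding macrodomains and works in a complex with DTX3L, an E3 ubiquitin ligase of the deltex family. IRF2 belongs to the interferon regulatory factors, which bind repeats of the letters GAAA in the promoters of such genes.

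The promoter sequences are shown first because the members differ in these repeats. RefSeq windows of GRCh38.p14 run 250 bases before to 50 bases after each start site. They matched 7 of the 8 genes, PARP9 with 2 windows. PARP10 had no window and was not searched. Each window was searched on both strands for 3 patterns. The first is a paired GAAA repeat (GAAA, any 2 bases, GAAA). The second is a triple GAAA repeat (GAAA, any 1 base, GAAA, any 2 bases, GAAA), which contains the first and was chosen after the sequences were seen. The third is TTCNNNGAA, the letters bound by STAT dimers. In the stretches below, which run 120 bases before to 30 bases after the start, capitals mark the fixed letters of the paired and triple repeats, read as TTTC where they lie on the opposite strand. PARP14 (chr3:122680719-122680868, plus strand) and PARP12 (chr7:140062922-140063071, minus strand) hold the triple repeat, and PARP1 (chr1:226408064-226408213, minus strand) holds neither. PARP9 and DTX3L are transcribed away from each other, and the stretch shown for them (chr3:122564271-122564367, plus strand) holds the 37 bases between the second PARP9 start and the DTX3L start with 30 bases on each side.
PARP14: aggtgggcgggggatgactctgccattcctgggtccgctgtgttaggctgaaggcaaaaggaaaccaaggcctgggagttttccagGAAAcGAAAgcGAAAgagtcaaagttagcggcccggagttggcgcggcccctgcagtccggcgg
PARP9 and DTX3L: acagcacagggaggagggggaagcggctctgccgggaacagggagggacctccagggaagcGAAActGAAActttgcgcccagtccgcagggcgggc
PARP12: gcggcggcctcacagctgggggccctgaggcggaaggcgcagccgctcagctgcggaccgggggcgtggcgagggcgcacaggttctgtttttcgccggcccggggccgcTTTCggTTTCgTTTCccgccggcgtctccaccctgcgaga
PARP1: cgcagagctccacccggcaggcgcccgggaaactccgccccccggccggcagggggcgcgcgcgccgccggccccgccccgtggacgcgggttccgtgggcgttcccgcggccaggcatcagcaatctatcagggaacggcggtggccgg

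The paired repeat lay at bases -29 to -20 from the PARP14 start. In the shared stretch 1 match, on bases 122564332 to 122564341 of chromosome 3, lay at -6 to 4 from the DTX3L start and at -41 to -32 from the second PARP9 start. In PARP12 it lay at -10 to -1 on the opposite strand. No match was found in the windows of PARP11, PARP1 and PARP2 or in the first window of PARP9. Of all 35116 promoter windows, 3.57% hold the paired repeat and 0.108% (38 windows) hold the triple repeat, as PARP14 does at -34 to -20 and PARP12 at -10 to 5. TTCNNNGAA, which 7.66% of all windows hold, was found in PARP14 at -40 to -32, where it overlaps the longer repeat, and in PARP2 at -154 to -146. These are matches of letters and not measured binding sites.

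Counts per library ranged from 14824907 to 23108288, so that 3 counts, taken as the floor of detection, are 0.129 to 0.196 CPM (read counts after scaling every library to the same size with TMM factors). Floors cover counting error only. Mitochondrially encoded genes took 17.3% to 18.0% of counts in the libraries labelled pIRF2, 12.2% to 18.8% in IRF2KO libraries and 12.7% to 17.1% in WT libraries. On the first principal component the lowest score was that of WT replicate 1 (-36.1) and the highest that of IRF2KO replicate 2 (52.3). IRF2 itself had 15.2, 18.1 and 18.4 CPM in the libraries labelled pIRF2, 23.5, 25.9 and 25.5 CPM in IRF2KO libraries and 37.1, 39.1 and 44.1 CPM in WT libraries. In the quasi-likelihood test of edgeR, adjusted by Benjamini and Hochberg's method, it was lower in IRF2KO cells than in WT cells (log2 fold change -0.68 ± 0.13 SE, adjusted p = 0.043), a call that 12 of 19 other settings did not keep (adjusted p up to 0.66). It was not higher in the libraries labelled pIRF2 than in IRF2KO libraries (-0.53 ± 0.13, adjusted p = 0.24), so every direction given for pIRF2 rests on the label. Myeloid markers summed to 5700 to 5936 CPM in the libraries labelled pIRF2, 6108 to 9905 CPM in IRF2KO libraries and 4788 to 7460 CPM in WT libraries, and none of the 16 tested passed in any comparison. Most of this sum came from PRTN3, ELANE, LYZ and AZU1. PRTN3 had 4762 CPM in IRF2KO replicate 2, against 2678 and 2717 CPM in the other IRF2KO libraries. MPO was not tested, with at most 0.514 CPM in a library. Of the T and NK cell markers CD3D, CD7 and CD8A had no count in any library, and the list's sum of 290.1 to 453.9 CPM came almost wholly from NKG7 (group means of 334, 369 and 325 CPM in libraries labelled pIRF2, IRF2KO and WT). None of the 3 tested T and NK cell markers passed. Erythroid and megakaryocyte markers summed to at most 0.261 CPM, and none was tested. B cell markers summed to 21.3 to 23.1 CPM in the libraries labelled pIRF2, 21.2 to 31.9 CPM in IRF2KO libraries and 16.1 to 21.4 CPM in WT libraries, with MS4A1 at 0. Of the 5 tested, BLNK, an adaptor of B cell receptor signalling, passed in 1 comparison, with means of 1.59 CPM in the libraries labelled pIRF2, 0.382 CPM in IRF2KO libraries and 1.25 CPM in WT libraries. Its log2 fold change was 2.04 in IRF2KO_pIRF2 against IRF2KO (edgeR adjusted p = 0.023) and -1.71 in IRF2KO against WT (edgeR adjusted p = 0.089), the directions in which PARP14 and DTX3L moved. Epithelial and fibroblast markers, with EPCAM and KRT19 at 0, summed to 2.14 to 2.63 CPM in the libraries labelled pIRF2, 0.68 to 1.32 CPM in IRF2KO libraries and 0.261 to 1.08 CPM in WT libraries, so that the libraries labelled pIRF2 lay above all others. COL1A1, a collagen gene and the 1 tested marker of that list, averaged 2.15, 0.754 and 0.540 CPM in IRF2KO_pIRF2, IRF2KO and WT libraries and did not pass (log2 fold change 1.91 in IRF2KO_pIRF2 against WT, edgeR adjusted p = 0.17). The part of these markers in the members' results was not tested. In bulk RNA, fewer cells that express a gene and less of its RNA per cell cannot be told apart.

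In IRF2KO cells PARP14 and DTX3L fell and the other members did not pass the test. PARP14 fell 7.23-fold and DTX3L fell 2.88-fold against WT cells. Of the 8 members 2 fell, none rose and 6 did not pass, beside 0.417% of all 11517 tested genes past the test in either direction and 0.365% past it and lower. The members' median log2 fold change was -0.31, against -0.01 over all tested genes. The libraries of the 2 groups did not overlap for 4 of the 8 members (PARP14, DTX3L, PARP9 and PARP2, all lower in IRF2KO), where 17.2% of all tested genes had no overlap and 8.23% were lower without overlap.

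PARP14, a large enzyme with macrodomains known as a coactivator of STAT6, had 2.95, 3.44 and 3.55 CPM in IRF2KO libraries (52, 68 and 63 counts), against 25.3, 23.4 and 23.3 CPM in WT libraries (492, 358 and 454 counts). Every IRF2KO library lay far below every WT library. Its means were 3.31 ± 0.322 and 24.0 ± 1.15 CPM (SD, n = 3 each), and the log2 fold change was -2.85 ± 0.15 (SE; 95% confidence interval -3.17 to -2.53; edgeR adjusted p = 3.8e-06). That was the smallest p-value of the 11517 genes tested in this comparison. Over 19 other settings the log2 fold change was -3.03 to -2.74, with an adjusted p of at most 5.3e-04.

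DTX3L had 21.1, 19.5 and 24.1 CPM in IRF2KO libraries, against 60.9, 60.2 and 65.1 CPM in WT libraries. The groups were again clear of each other, but the transcript kept 34.7% of its WT mean where PARP14 kept 13.8%. The log2 fold change of DTX3L was -1.53 ± 0.12 (SE; 95% confidence interval -1.78 to -1.27; edgeR adjusted p = 2.7e-05), and over 19 other settings it was -1.61 to -1.46 with an adjusted p of at most 0.0057. Mitochondrial shares differed between the libraries, so the comparison was repeated on each side of 15%. Among libraries over 15%, with WT replicate 3 as the lone WT library and its spread taken from the other groups, the log2 fold changes were -2.74 for PARP14 and -1.59 for DTX3L. Among libraries under 15%, with IRF2KO replicate 1 alone, they were -3.03 for PARP14 and -1.51 for DTX3L.

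PARP9, the macrodomain partner of DTX3L, was counted at a low level. It had 3.17, 1.97 and 2.99 CPM in IRF2KO libraries (56, 39 and 53 counts), against 4.02, 5.81 and 3.95 CPM in WT libraries (78, 89 and 77 counts). The groups did not overlap, but the WT libraries were spread and WT replicate 2 stood highest. The log2 fold change of -0.76 ± 0.23 (SE; 95% confidence interval -1.25 to -0.26) did not pass the test (edgeR adjusted p = 0.26), nor did it under any of 19 other settings, which gave -0.89 to -0.56. PARP9 and DTX3L overlap on opposite strands in 217 exonic bases, 2.43% of the PARP9 exons and 3.70% of the DTX3L exons, and reads there cannot be told apart if the counting used no strand.

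**Figure D1:**
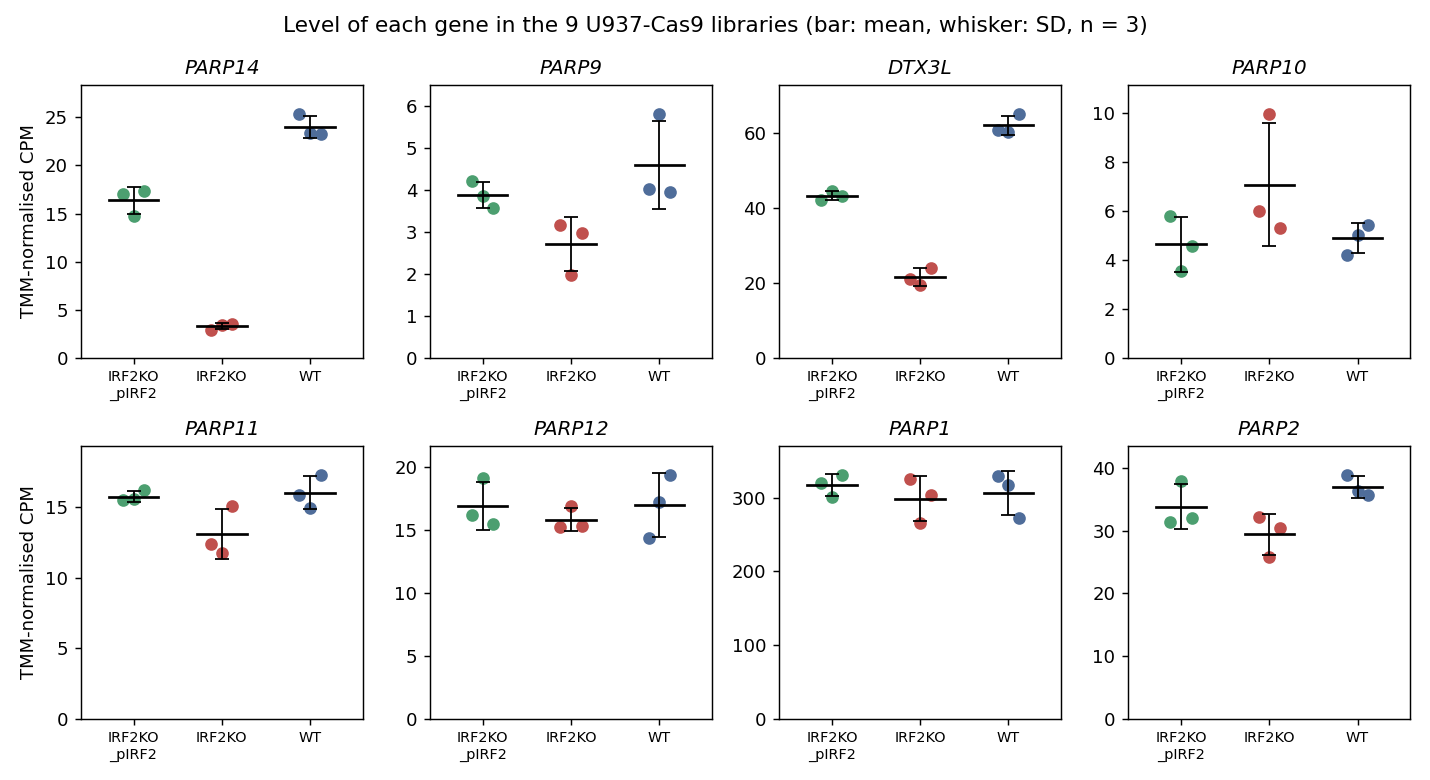
Normalised counts (CPM, linear axis from 0 in each panel) of the 8 members in each library, with groups in the order IRF2KO_pIRF2, IRF2KO and WT; points are libraries, and black lines with whiskers are means ± SD (n = 3). The IRF2KO libraries lie below all others for PARP14 (2.95 to 3.55 CPM) and DTX3L (19.5 to 24.1 CPM). They do so for PARP9 as well (1.97 to 3.17 CPM), which did not pass the test. The groups overlap for PARP12 and PARP1.

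The mono-ADP-ribosyltransferases PARP10, PARP11 and PARP12 did not pass the test between IRF2KO and WT cells. PARP12, a zinc-finger protein found at the Golgi, had 15.2, 16.9 and 15.3 CPM in IRF2KO libraries, against 14.3, 17.2 and 19.4 CPM in WT libraries. The groups overlapped, and the log2 fold change was -0.10 ± 0.15 (SE; 95% confidence interval -0.43 to 0.22; edgeR adjusted p = 0.65). Its promoter window holds the triple repeat, as that of PARP14 does. PARP11, known for work on the interferon receptor pathway, had 12.4, 11.8 and 15.1 CPM in IRF2KO libraries, against 15.9, 14.9 and 17.3 CPM in WT libraries. IRF2KO replicate 3 reached the WT range, and the log2 fold change was -0.29 ± 0.14 (SE; 95% confidence interval -0.59 to 0.00; edgeR adjusted p = 0.27).

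PARP10, an enzyme first described as a partner of MYC, had 6.01, 9.97 and 5.30 CPM in IRF2KO libraries, against 4.22, 5.02 and 5.44 CPM in WT libraries. Its log2 fold change of 0.54 ± 0.26 (edgeR adjusted p = 0.27) turned on IRF2KO replicate 2, which stood alone at the top, and was 0.21 without that library (adjusted p = 0.81). PARP10 shares 8.64% of its exonic bases with GRINA and SPATC1 on the opposite strand.

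The constitutive relatives did not pass the test either. PARP1, the main sensor of DNA strand breaks, had 326, 266 and 304 CPM in IRF2KO libraries, against 330, 317 and 272 CPM in WT libraries. The groups overlapped, with a log2 fold change of -0.04 ± 0.11 (SE; 95% confidence interval -0.29 to 0.21; edgeR adjusted p = 0.83). PARP2 had 32.1, 25.8 and 30.4 CPM in IRF2KO libraries, against 38.9, 36.3 and 35.7 CPM in WT libraries. All 3 IRF2KO libraries were below all 3 WT libraries, and the log2 fold change of -0.33 ± 0.13 (SE; 95% confidence interval -0.61 to -0.05) did not pass the test (edgeR adjusted p = 0.26).

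In the libraries labelled pIRF2, PARP14 and DTX3L rose against IRF2KO cells, PARP14 by 4.94-fold and DTX3L by 2.01-fold. Of the 8 members 2 rose, none fell and 6 did not pass, beside 0.365% of tested genes past the test and 0.339% past it and higher. The median log2 fold change of the members was 0.23, against 0.00 over all tested genes. The groups did not overlap for 4 members (PARP14, DTX3L, PARP9 and PARP11, all higher in the libraries labelled pIRF2), where 22.6% of all tested genes had no overlap and 11.1% were higher without overlap. This comparison uses the same IRF2KO libraries as the one with WT cells, so the pair of results is not independent.

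PARP14 had 17.1, 14.8 and 17.3 CPM in the libraries labelled pIRF2, against 2.95, 3.44 and 3.55 CPM in IRF2KO libraries. Its log2 fold change was 2.304 ± 0.15 (SE; 95% confidence interval 1.99 to 2.62; edgeR adjusted p = 3.9e-05), again the smallest p-value of the comparison. DTX3L had 42.1, 44.4 and 43.3 CPM, against 21.1, 19.5 and 24.1 CPM in IRF2KO libraries, with a log2 fold change of 1.01 ± 0.11 (SE; 95% confidence interval 0.75 to 1.26; edgeR adjusted p = 0.0016). Both calls held under all 18 other settings run for this comparison, with log2 fold changes of 2.23 to 2.37 for PARP14 and 0.94 to 1.09 for DTX3L. Among libraries over 15% mitochondrial counts they were 2.24 for PARP14 and 1.0 for DTX3L.

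PARP9 had 4.21, 3.87 and 3.57 CPM in the libraries labelled pIRF2, against 3.17, 1.97 and 2.99 CPM in IRF2KO libraries. The groups did not overlap, but the log2 fold change of 0.52 ± 0.23 did not pass the test (edgeR adjusted p = 0.44). PARP11 had 15.5, 15.6 and 16.2 CPM, against 12.4, 11.8 and 15.1 CPM in IRF2KO libraries, with a log2 fold change of 0.27 ± 0.14 (edgeR adjusted p = 0.45). PARP12 had 16.2, 19.1 and 15.5 CPM in the libraries labelled pIRF2, within reach of the IRF2KO values, with a log2 fold change of 0.10 ± 0.15 (edgeR adjusted p = 0.75). PARP10 had 5.80, 3.57 and 4.57 CPM, with a log2 fold change of -0.61 ± 0.25 (edgeR adjusted p = 0.44) that was -0.28 without IRF2KO replicate 2. PARP1 (320, 301 and 331 CPM) and PARP2 (31.5, 37.9 and 32.1 CPM) overlapped the IRF2KO libraries, with log2 fold changes of 0.09 ± 0.11 and 0.20 ± 0.13 (edgeR adjusted p = 0.70 and 0.49).

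Against WT cells, no member passed the test in the libraries labelled pIRF2 by edgeR, where 0.0781% of all tested genes did. Before adjustment 2 members, PARP14 and DTX3L, had a p under 0.05 in the edgeR fit, as did 3.92% of all tested genes. PARP14 averaged 16.4 ± 1.41 CPM in the libraries labelled pIRF2 and 24.0 ± 1.15 CPM in WT libraries (SD, n = 3 each), which is 68.3% of the WT mean, with a log2 fold change of -0.55 ± 0.13 (SE; 95% confidence interval -0.83 to -0.27; edgeR adjusted p = 0.34). DTX3L averaged 43.3 ± 1.17 CPM in the libraries labelled pIRF2 and 62.1 ± 2.63 CPM in WT libraries, 69.7% of the WT mean, with a log2 fold change of -0.52 ± 0.11 (SE; 95% confidence interval -0.77 to -0.27; edgeR adjusted p = 0.22). For both genes every library labelled pIRF2 lay between the IRF2KO and the WT libraries. Only these 2 of the 8 members had no overlap with WT, both lower in the libraries labelled pIRF2, where 11.6% of all tested genes had none and 5.75% were lower without overlap. DESeq2 called both (adjusted p = 0.018 for PARP14 and 0.0019 for DTX3L), and limma-voom called 0 members. The other 6 members lay between -0.23 (PARP9) and 0.05 (PARP1) on the log2 scale, all with an edgeR adjusted p of 1.0, and the median over the 8 members was -0.10, against -0.01 over all tested genes.

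**Figure D2:**
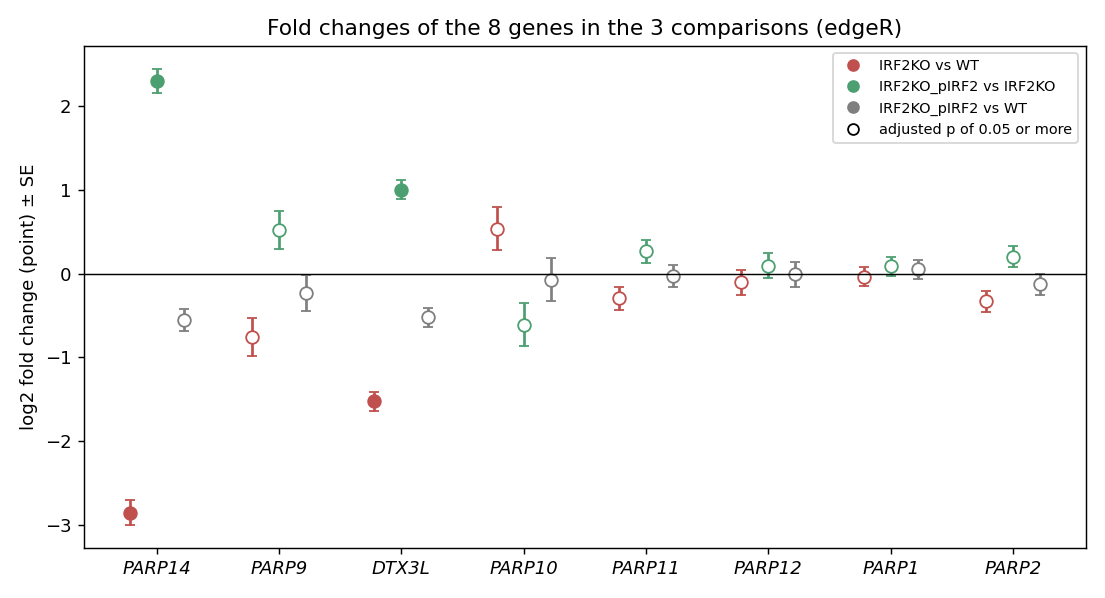
Log2 fold changes of the 8 members in the 3 comparisons (edgeR), with whiskers of ± 1 SE; filled points passed the test at an adjusted p under 0.05. PARP14 (-2.85 and 2.304) and DTX3L (-1.53 and 1.01) are the members past the test, in IRF2KO against WT and in IRF2KO_pIRF2 against IRF2KO.

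Levels of different genes were compared per kilobase of exon (RPKM). In WT libraries the order of mean RPKM was PARP1 (42.7), DTX3L (10.6), PARP2 (9.03), PARP12 (2.70), PARP11 (2.59), PARP14 (2.29), PARP10 (0.812) and PARP9 (0.514). PARP12, PARP11 and PARP14 overlapped there, and the other neighbours in the order did not. In IRF2KO libraries DTX3L, at 3.67 RPKM, lay below PARP2, at 7.18 RPKM, and PARP14, at 0.316 RPKM, lay beside PARP9, at 0.303 RPKM, with overlapping libraries. PARP10 (1.18 RPKM) stood above PARP14 in IRF2KO libraries and below it in the others. In the libraries labelled pIRF2 the means were 44.3 for PARP1, 8.26 for PARP2, 7.38 for DTX3L, 2.69 for PARP12, 2.54 for PARP11, 1.56 for PARP14, 0.770 for PARP10 and 0.435 RPKM for PARP9, so that DTX3L stayed below PARP2 and PARP14 stood again above PARP10.

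**Figure D3:**
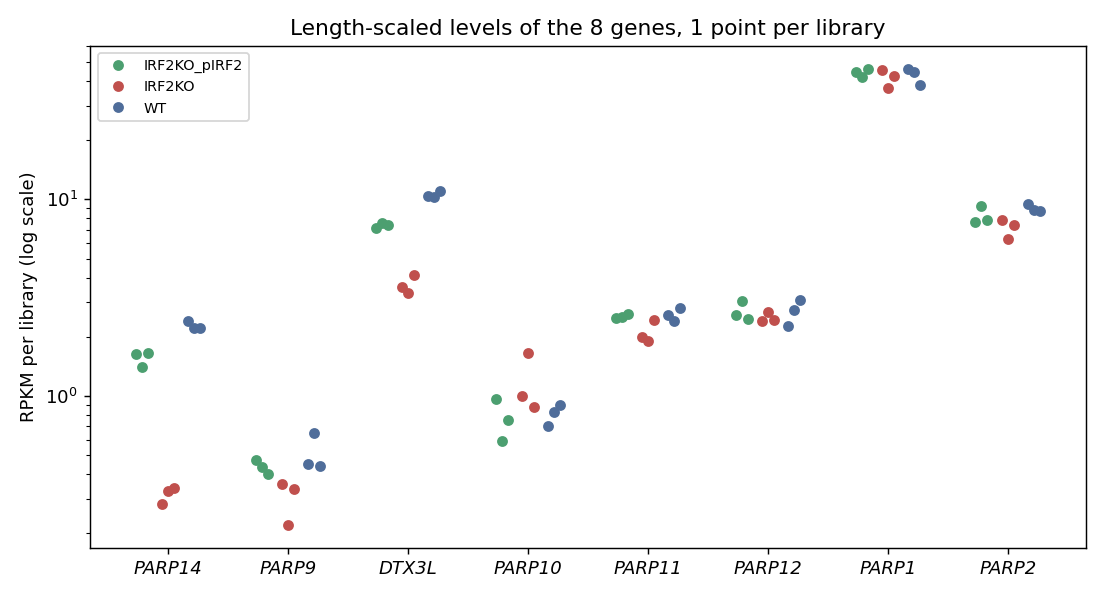
Levels per kilobase of exon (RPKM, log axis) of the 8 members in every library, with IRF2KO_pIRF2, IRF2KO and WT side by side for each gene. PARP1 lies above 37 RPKM throughout, DTX3L lies above PARP2 in WT libraries (10.6 against 9.03 RPKM on average) and below it in the others, and PARP14 overlaps PARP9 in IRF2KO libraries.

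The 2 partners of the PARP9 and DTX3L complex were counted at unequal levels. DTX3L was 10.1 to 15.04 times PARP9 per kilobase in IRF2KO libraries and 15.8 to 25.1 times in WT libraries. In the libraries labelled pIRF2 it was 15.2 to 18.5 times PARP9. PARP14 was 0.0779 to 0.0988 of DTX3L in IRF2KO libraries, against 0.200 to 0.233 in WT libraries, and 0.186 to 0.227 in the libraries labelled pIRF2. Both ratios were lower in every IRF2KO library than in every WT library. Each gave a 2-sided exact permutation p of 0.1 (adjusted 0.13 over 9 ratio tests), the smallest p that 3 libraries against 3 allow. Between the libraries labelled pIRF2 and WT the ratio of PARP14 to DTX3L overlapped (2-sided exact permutation p = 0.8). Of PARP12, PARP14 was 0.116 to 0.139 in IRF2KO libraries, against 0.721 to 1.06 in WT libraries, with 0.464 to 0.671 in the libraries labelled pIRF2.

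PARP14, PARP9 and DTX3L lie together on chromosome 3 (GENCODE 29, GRCh38). PARP9 spans chr3:122527924-122564577 on the minus strand, DTX3L spans chr3:122564238-122575203 on the plus strand and PARP14 spans chr3:122680618-122730840 on the plus strand. These GENCODE starts differ from the RefSeq starts to which the promoter windows and repeat positions refer. By GENCODE the ends of PARP9 and DTX3L overlap, and the PARP14 and PARP12 stretches shown above lie inside their genes. From PARP9 to PARP14 the locus covers 202.917 kb, and the PARP14 start is 116.38 kb from the DTX3L start. Within 300 kb of the locus lie 10 other genes of the table, of which 7 were tested and none passed in any comparison. Their log2 fold changes in IRF2KO against WT cells ran from -0.61 to 0.06, with a median of -0.28, against -0.01 over all tested genes. The lowest was WDR5B, at 6.27 CPM on average in IRF2KO libraries and 9.57 CPM in WT libraries (-0.61 ± 0.17 SE, edgeR adjusted p = 0.26). PARP15, a further macrodomain PARP between DTX3L and PARP14, had no count in any of the 9 libraries. The other members lie elsewhere, PARP10 on chromosome 8, PARP11 on 12, PARP12 on 7, PARP1 on 1 and PARP2 on 14.

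**Figure D4:**
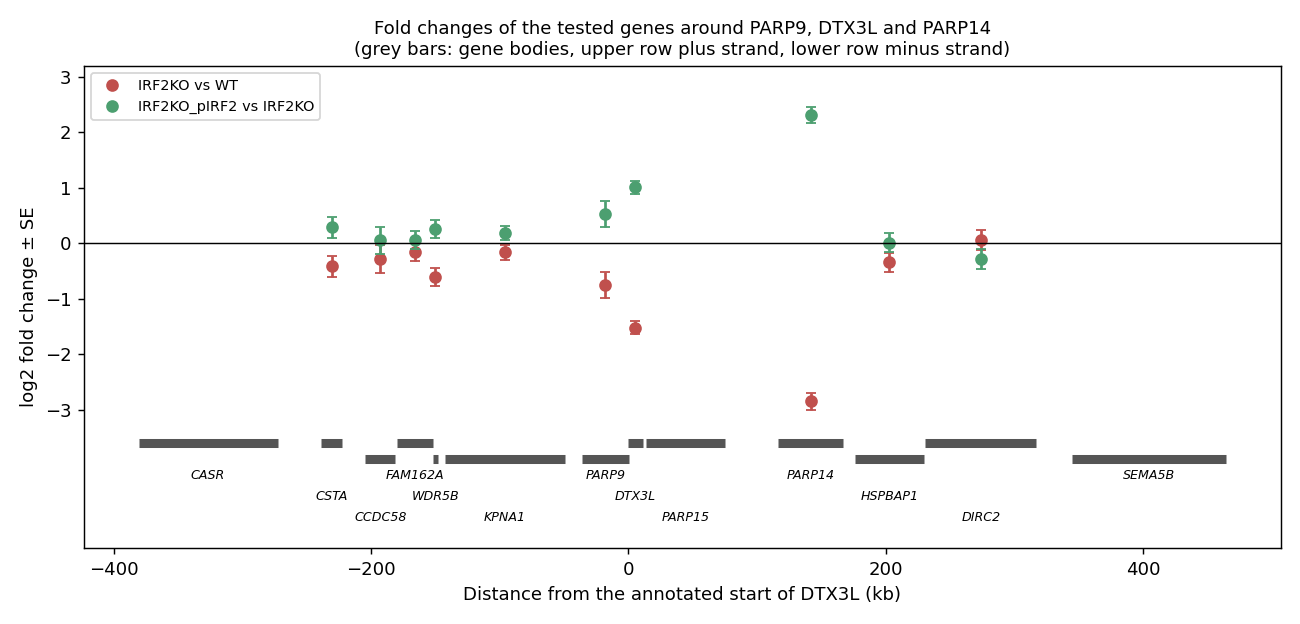
Log2 fold changes (± SE) of the tested genes around PARP9, DTX3L and PARP14, plotted by distance in kb from the DTX3L start, with grey bars for gene bodies, for the comparisons of IRF2KO with WT and of IRF2KO_pIRF2 with IRF2KO. PARP14 (-2.85) and DTX3L (-1.53) stand below the other genes in IRF2KO against WT, and the 7 neighbours lie between -0.61 and 0.06.

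The rest of the pathway was counted over lists named by function. Of 10 other PARP family genes 9 were tested, and none passed in any comparison. Their log2 fold changes in IRF2KO against WT cells were all below 0, from -0.56 to -0.07. The median was -0.19, against -0.01 over all tested genes and -0.28 over the tested neighbours of the locus. PARP8 gave the lowest of them, at 7.37 CPM in IRF2KO libraries and 10.8 CPM in WT libraries (-0.56 ± 0.18 SE, edgeR adjusted p = 0.26). The medians of this list were 0.21 in IRF2KO_pIRF2 against IRF2KO and -0.01 in IRF2KO_pIRF2 against WT.

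Genes that read or remove ADP-ribose (9 of 11 tested) had no member past the test. PARG, the hydrolase that cuts poly-ADP-ribose chains, averaged 29.6 CPM in the libraries labelled pIRF2, 27.5 CPM in IRF2KO libraries and 33.2 CPM in WT libraries (IRF2KO against WT -0.27 ± 0.17 SE, edgeR adjusted p = 0.32). HPF1, the cofactor that directs PARP1 and PARP2 to serine, averaged 11.8, 10.3 and 13.0 CPM in IRF2KO_pIRF2, IRF2KO and WT libraries (-0.33 ± 0.25 SE between IRF2KO and WT, edgeR adjusted p = 0.40). None of the 10 strand-break repair partners of PARP1 and PARP2, the 12 tested genes of NAD supply and use and the 2 tested other deltex genes passed in any comparison. Their medians in IRF2KO against WT cells were -0.06, 0.03 and 0.25 on the log2 scale.

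Of 16 listed genes of interferon signalling 15 were tested, all but IRF9, which had no count in any library. Among the tested genes IRF2 alone passed, lower in IRF2KO against WT and in IRF2KO_pIRF2 against WT (-1.22 ± 0.13 SE, edgeR adjusted p = 0.0029). STAT2, a subunit of the factor that type I interferon activates, averaged 32.9, 41.0 and 29.7 CPM in IRF2KO_pIRF2, IRF2KO and WT libraries (IRF2KO against WT 0.47 ± 0.20 SE, edgeR adjusted p = 0.27), and IRF1, with 22% of its exonic bases shared on the opposite strand, averaged 8.0, 8.23 and 6.38 CPM in the same groups (0.36 ± 0.19 SE, edgeR adjusted p = 0.28). In IRF2KO against WT cells the 15 genes had a median log2 fold change of 0.04, and their values ran in both directions, from -0.68 (IRF2) to 0.47 (STAT2).

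The genes most like PARP14 in pattern, by Pearson's r of log2 CPM over the 9 libraries, were CARD16 (0.995), SAMD9 (0.991), ERAP2 (0.991), PSMB9 (0.988) and CASP4 (0.984). Among those most like DTX3L were CASP4 (0.993), PSME1 (0.993), SAMD9 (0.989) and PSMB9 (0.988), so SAMD9, PSMB9 and CASP4 stand in both lists. For PARP9 they were SUDS3 (0.961), CDKL3 (0.958), LRRC42 (0.946), BTK (0.937) and ZNF577 (0.935), none of which passed the test in any comparison. All r values describe libraries that share the same group differences and depths. In the IRF2KO libraries CARD16 had no count and ERAP2 had 2 or 3 counts, at or below the floor of 3 counts. The paired repeat was held by 46.7% of the promoter windows of genes that fell in IRF2KO against WT cells (21 of 45 windows of 30 genes, PARP14 and DTX3L among them), and by 2.8% of the 13309 windows of tested genes that did not pass, among which stand PARP9 and PARP12. For the triple repeat these shares were 17.8% (8 windows) and 0.0977%, and for TTCNNNGAA they were 22.2% (10 windows) and 6.03%. The triple repeat was chosen after the members' sequences were seen, and a PARP14 window is among its 8. Windows of PARP14 and DTX3L are also among the 21 with the paired repeat. The DTX3L match lies on the same bases as that of PARP9, which did not pass. The shares of either repeat are therefore no separate evidence on the members. Shares are of windows and not of genes, and of the 42 genes that fell 30 had a window.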

How the data were processed

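RNA-seq of 9 U937-Cas9 libraries was used. The deposited values are raw read counts per gene made by the authors, not normalised. The labels' protocols name a Macherey Nagel kit for the RNA and the Lexogen SENSE kit for the libraries. The submitters' processing notes name HTSeq 0.9.1, TopHat2 2.1.1, Bowtie2 2.3.3, bedtools and SAMtools with the hg38 build. What each tool did, the annotation release and the strand setting were not given in the sources used here.

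Of 20265 identifiers 20012 matched GENCODE 29, which gave symbols, coordinates and exonic lengths, and 253 with 0.0123% of counts did not. Counts were filtered with filterByExpr, scaled by TMM and tested with edgeR 4.0.16 (quasi-likelihood F-test, R 4.3.3), all 9 libraries in 1 fit without covariates, Benjamini-Hochberg adjusted over 11517 genes with a threshold of 0.05. The fit was tested on simulated data. CPM are read counts after scaling every library to the same size with TMM factors, and RPKM are CPM per kilobase of exon. Alternatives were DESeq2 1.42.0, limma-voom 3.58.1, other scaling, no filter, other samples or covariates, and each library left out.

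Named genes were all 8 members, IRF2, STAT2, IRF1, HPF1, PARG, up to 4 called genes per list, neighbours within 300 kb and the 5 genes most correlated with PARP14, PARP9 and DTX3L. Results of some genes this rule names are not reported here. Of the neighbours, the lists and the markers, other genes named were chosen after their values were seen. The members and lists were chosen with earlier results of these data known. No 2 replicates agreed within counting noise (chi-square over its degrees of freedom 3.05 to 90.0). Promoter sequences are RefSeq's, on GRCh38.p14.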

Additional observations from a re-analysis of the deposited data

How the results depend on the processing

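The calls of PARP14 and DTX3L in IRF2KO against WT (19 other settings) and in IRF2KO_pIRF2 against IRF2KO (18 other settings) were kept throughout. All genes past the edgeR test in IRF2KO against WT numbered 48, but 121 with DESeq2, 31 with only the 2 groups fitted, 26 in libraries over 15% mitochondrial counts, and 34 to 49 with 1 library left out. In IRF2KO_pIRF2 against IRF2KO they numbered 42, but 68 with DESeq2 and 26 to 47 with 1 library left out, 26 without IRF2KO_pIRF2 replicate 2. In IRF2KO_pIRF2 against WT they numbered 9, but 39 with DESeq2, 18 with no filter, 16 with only the 2 groups, 27 without both ends of the first component, 0 over 15% mitochondrial counts, and 3 to 25 with 1 library left out (3 without WT replicate 2, 25 without IRF2KO replicate 2, and 4 without any 1 library labelled pIRF2). The members past the test there were 0, but 2 with DESeq2 and 1 (DTX3L, adjusted p = 0.022) without both ends. The cause of these shifts was not tested, beyond the fewer libraries some settings hold. Estimates near 0, none of them called, changed sign. PARP1 in IRF2KO against WT became 0.047 with mitochondrial share as a term, 0.096 without both ends, 0.057 over 15% and 0.023 under 15%, and with 1 library left out it was -0.12 to 0.039. PARP12 was -0.22 to 0.0026 in that comparison with 1 library left out. In IRF2KO_pIRF2 against WT, leaving out 1 library gave -0.12 to 0.10 for PARP12, -0.26 to 0.085 for PARP10, -0.077 to 0.029 for PARP11 and -0.028 to 0.11 for PARP1, and all 4 changed sign without WT replicate 3. Replicate numbers did not pair the libraries (correlations of same-numbered deviations of -0.43 to 0.61), and the fit with the replicate block called 39, 36 and 7 genes and 2, 2 and 0 members in the 3 comparisons in the order above. With 3 libraries a group, the low counts of PARP9 (39 to 98 a library) limit its precision.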
